A study of Mus musculus with 16 samples.

Results

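The nuclear genes of oxidative phosphorylation were examined in bulk RNA sequencing of mouse ventricles, complex by complex. The set held every protein-coding gene of GENCODE M21 whose symbol begins with Ndufa, Ndufb, Ndufc, Ndufs or Ndufv (without the Ndufaf assembly factors), Uqcr, Cox4i, Cox5, Cox6, Cox7, Cox8 or Atp5, together with Sdha, Sdhb, Sdhc, Sdhd and Cyc1. These were 87 gene identifiers, against 33399 identifiers in the count table, with 38 in complex I, 4 in complex II, 9 in complex III, 18 in complex IV and 18 in complex V. Of these, 85 were in the count table and 84 passed the filter on low counts. Cox8c and a second identifier for Atp5o, a read-through with Donson, had no counts to analyse here, and Cox7b2 (mean 0.148 CPM, read counts scaled to a common library size with TMM factors) was below the filter.

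The 16 mice were C57BL/6 with a wild-type genotype, 4 to each combination of sex and diet: male controls, male mice with chronic kidney disease (CKD), female controls and female CKD mice. CKD was induced from 8 weeks of age with chow containing 0.25% adenine, given in turns with plain chow over 6 weeks, and controls ate plain chow for the same time. The diet injures kidney tubules, so the hearts come from animals with a toxic form of kidney disease. Each library is named below by its group and a number that only labels it (male_CKD 4, for example).

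Oxidative phosphorylation takes place in the inner mitochondrial membrane. Complex I (NADH dehydrogenase) and complex II (succinate dehydrogenase) pass electrons to ubiquinone, complex III hands them to cytochrome c and complex IV (cytochrome c oxidase) to oxygen, while complex V uses the resulting proton gradient to make ATP. Most subunits are encoded in the nucleus, and the heart, which beats on mitochondrial ATP, is among the tissues richest in them. Several complex IV subunits exist as a form found widely and a form of heart and skeletal muscle, and transcription factors such as NRF1, GABP, ERR and YY1 are known regulators of these genes.

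The start regions of the genes were searched for short motifs of those factors, and the matches below are shown because they recur between genes of the set. RefSeq promoter sequences (GRCm38.p6, 250 bases before to 50 after the annotated start) were matched for 69 of the genes, with 74 promoters in all. The NRF1 core CGCATGCG, which reads the same on both strands, was in 9 of these promoters (12.2%) and in 1.87% of 32851 promoters of all genes. A core of this kind had its first base before the start in 8 of the 9, as did 88.1% of 664 matches in all promoters. That of Uqcr11 begins at base -5 and runs across the start. Of those 8, 5 are given here with 11 bases on either side, in gene direction 5′ to 3′, with the core in capitals.
Ndufa11, chr17:56717692-56717721, plus strand: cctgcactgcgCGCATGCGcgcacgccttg
Ndufa8, chr2:36049329-36049358, minus strand: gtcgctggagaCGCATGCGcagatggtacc
Uqcr11, chr10:80406808-80406837, minus strand: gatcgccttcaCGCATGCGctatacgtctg
Cox6a1, chr5:115349101-115349130, minus strand: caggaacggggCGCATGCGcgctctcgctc
Atp5g2, chr15:102671070-102671099, minus strand: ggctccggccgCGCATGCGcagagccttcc

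The YY1 site AAGATGGC, searched on both strands, was in 10 promoters of the set (13.5%) and in 2.75% of all promoters. All 10 belong to genes of complex I or complex V, and most to complex I. In 8 of the 10 its first base lay after the start, between base 23 and base 39 of the transcript, and in 9 of the 10 it ran in gene direction. Among 927 matches in all promoters, 40.2% lay after the start. The windows below show 5 of the 8 with the site in capitals.
Ndufa3, chr7:3617384-3617413, plus strand: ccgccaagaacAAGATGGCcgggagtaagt
Ndufc1, chr3:51408915-51408944, minus strand: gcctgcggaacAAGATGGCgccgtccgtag
Ndufs7, chr10:80249462-80249491, plus strand: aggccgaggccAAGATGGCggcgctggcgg
Ndufa9, chr6:126849097-126849126, minus strand: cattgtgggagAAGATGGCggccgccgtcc
Atp5j2, chr5:145191500-145191529, minus strand: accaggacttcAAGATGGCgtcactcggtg

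The GABP site CCGGAAGT was in 5 promoters (6.76%, against 3.89% of all) and the ERR element TCAAGGTCA in 2 (2.70%, against 0.423%), those of Sdhd and Atp5g3. Median GC content was 57.5% in the promoters of the set and 52.7% in all promoters, and GC-rich letters such as the NRF1 core are met more often in GC-rich sequence. Cox7a1 and Cox8b, the muscle forms of their subunits, were among the 50 of 74 promoters that held none of the 4 motifs, as was Cox7a2 (91.5% of all promoters held none). Their 250 bases before the start are printed because the isoform shares below turn on these genes. Absence of these letters from this window says nothing of a factor's binding.
Cox7a1, chr7:30183921-30184170, plus strand: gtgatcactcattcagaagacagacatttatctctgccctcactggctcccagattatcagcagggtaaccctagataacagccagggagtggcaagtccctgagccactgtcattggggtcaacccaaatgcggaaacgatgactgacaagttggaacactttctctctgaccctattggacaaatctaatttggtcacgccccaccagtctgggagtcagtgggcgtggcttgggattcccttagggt
Cox8b, chr7:140900447-140900696, minus strand: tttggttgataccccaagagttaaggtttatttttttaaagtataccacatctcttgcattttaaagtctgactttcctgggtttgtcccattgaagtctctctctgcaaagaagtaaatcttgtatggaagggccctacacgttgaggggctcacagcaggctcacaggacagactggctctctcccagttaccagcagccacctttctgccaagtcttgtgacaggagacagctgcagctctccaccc

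**Figure D1:**
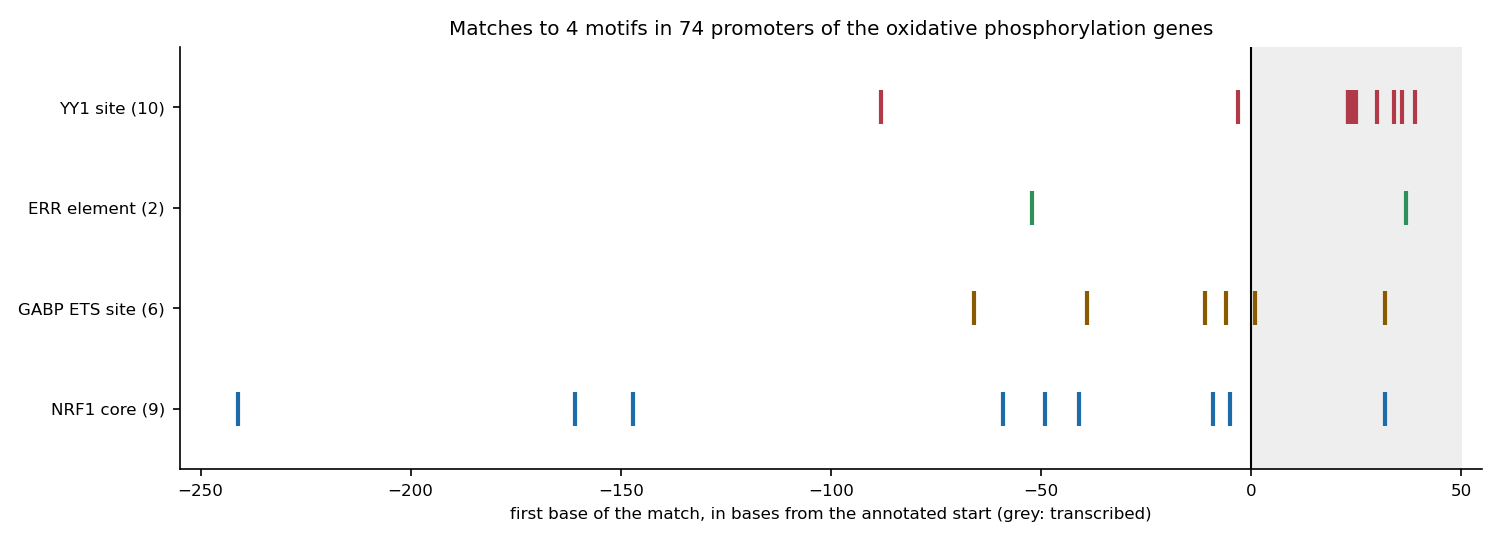
Position of each motif match relative to the annotated start in 74 RefSeq promoters (x axis, bases, with the transcribed part in grey; y axis, motif with its number of matches). The 10 YY1 sites gather between bases 23 and 39 of the transcript, with 2 exceptions (40.2% of YY1 matches in all promoters lie after the start), and 8 of 9 NRF1 cores begin before it (88.1% in all promoters).

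Libraries held 10203707 to 13626039 counts. Cardiomyocyte markers summed to 32824 to 53642 CPM in all libraries, and atrial cardiomyocyte markers to 154 to 866 CPM, of which Bmp10 was at 0 in some libraries. Library male_CKD 4 stood apart. Its 10 fibroblast markers summed to 536 CPM, against 1991 to 2281 CPM in the other male CKD libraries, and its 8 pericyte and smooth muscle markers to 733 CPM, against 1385 to 1750 CPM. Its endothelial marker sum of 720 CPM was also the lowest of the 16, its cardiomyocyte marker sum of 53642 CPM the highest, and its TMM factor of 0.877 the lowest. Between libraries, deviations of all genes from their means correlated with exon length by a Spearman value of -0.356 in male_CKD 4 and -0.165 in male_control 3, and by -0.133 to 0.302 in the other 14 (across genes, which are not replicates). Those 2 libraries are the only ones with the code number 3 in their titles, with its meaning not given in the sources used here. Correlations with GC content ran from -0.492 to 0.145 in females and from 0.00959 to 0.548 in males, with the highest in male_control 3. Many values that moved with male_CKD 4 are also given without it.

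Together the genes took 5.01% ± 0.640 (SD, n = 16) of all counts. Complex V held the largest part, 1.82% ± 0.225, followed by complex I with 1.49% ± 0.224, complex IV with 0.684% ± 0.0952, complex III with 0.611% ± 0.0836 and complex II with 0.406% ± 0.0331 (SD, n = 16). In male_CKD 4 the share of the whole set was 6.98%, in male_control 3 it was 5.83%, and the other libraries lay between 4.37% and 5.33%.

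Levels of different genes were compared as CPM per kb of merged exons. In complex V the subunits of the catalytic head led. Atp5a1, the alpha subunit, had 1390 ± 214 CPM per kb and Atp5b, the beta subunit, 1046 ± 162 (SD, n = 16). Their order turned when length was taken from the principal transcript, with 2313 CPM per kb for Atp5b, which carries the catalytic sites, and 1763 for Atp5a1. Atp5s, which the naming rule admits although it is not a core subunit, was lowest at 17.9 ± 2.03 CPM per kb. In complex IV the muscle form Cox6a2 (1153 ± 224 CPM per kb) and the muscle form Cox8b (1003 ± 196) were highest by merged exons, with Cox4i1 above them by principal transcript (1478), and Cox6b2 (2.01 ± 0.460) and Cox4i2 (9.57 ± 2.86) were the lowest of the tested genes. In complex III the small subunit Uqcr11 led with 722 ± 174 CPM per kb by merged exons, and the Rieske protein Uqcrfs1 had 585 ± 104. By principal transcript Uqcrh, a hinge protein, stood at 1144 and Uqcr11 at 1040. In complex I, Ndufa4, which carries a complex I name but has since been assigned to complex IV, led with 536 ± 104 CPM per kb. In complex II the membrane anchor Sdhd (527 ± 86.9 CPM per kb) and the flavoprotein Sdha (495 ± 58.3) overlapped, above the iron-sulfur subunit Sdhb (399 ± 81.4) and the anchor Sdhc (152 ± 21.4). By principal transcript the order was Sdhb (782), Sdha (704), Sdhd (527) and Sdhc (156). Length choices matter here: Atp5l stood at 116 CPM per kb by merged exons and 1371 by its principal transcript, Ndufb7 at 65.5 and 476, and Ndufb8 at 173 and 798.

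**Figure D2:**
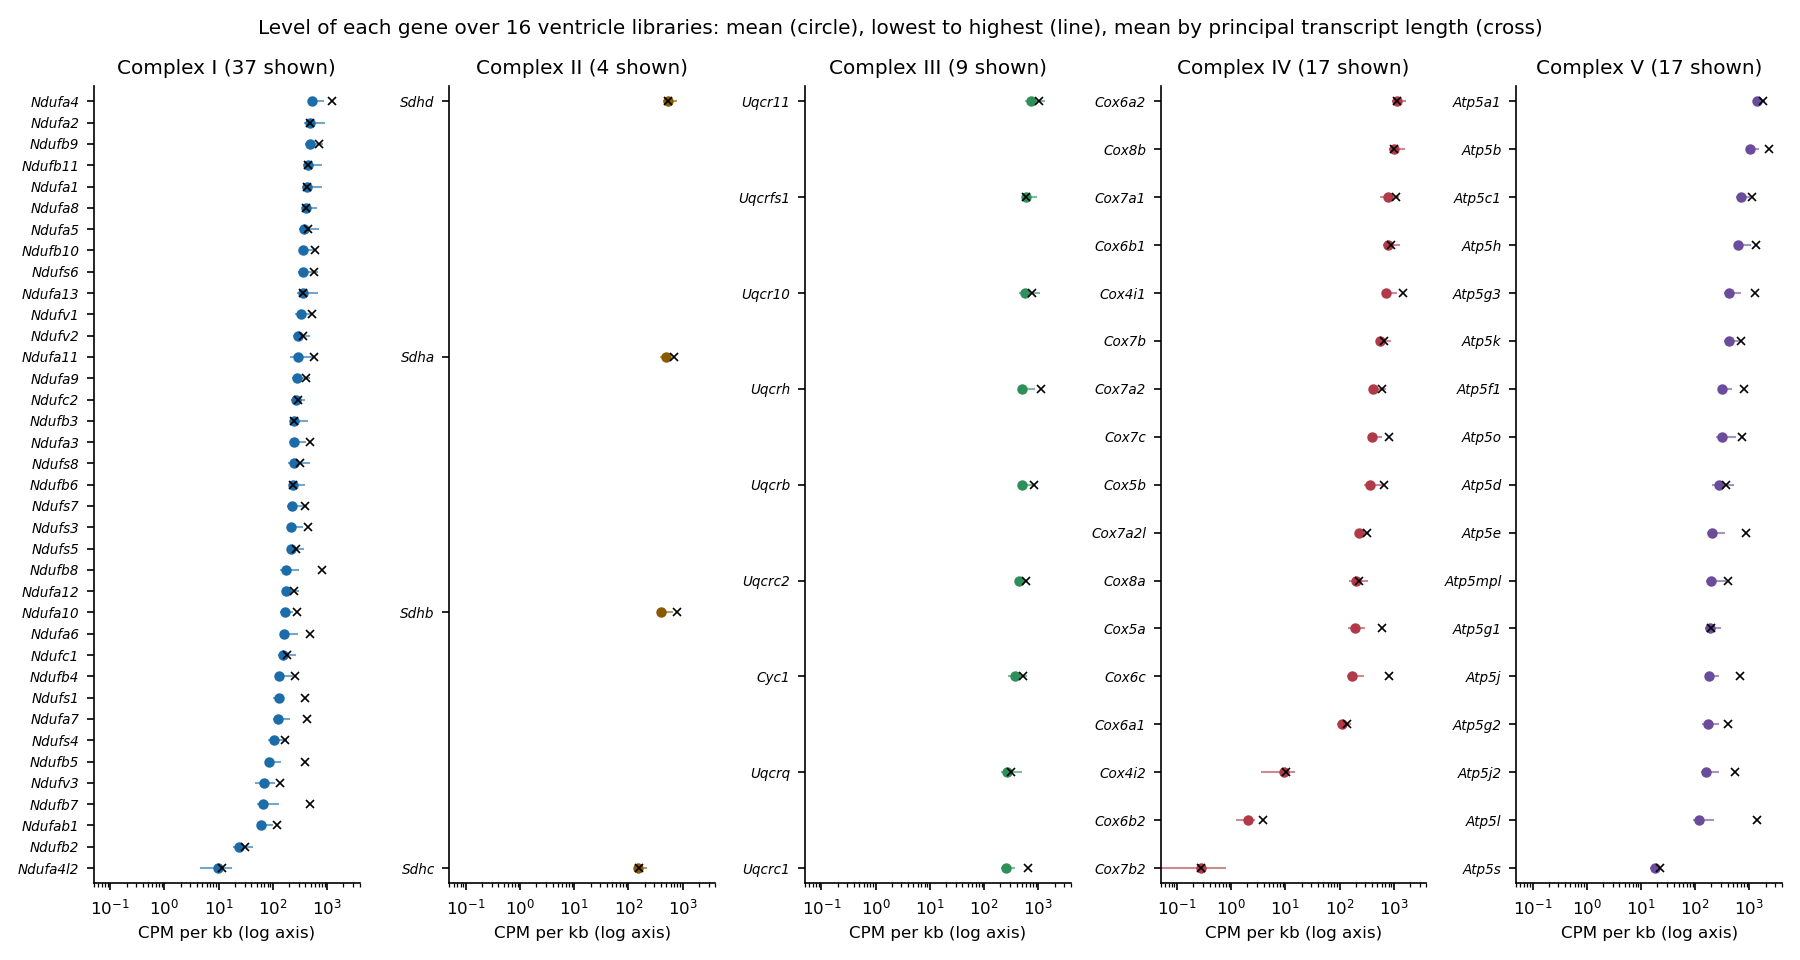
Level of 84 of the 85 genes in the count table, in CPM per kb on a log axis, by complex (circle, mean of 16 libraries; line, lowest to highest library, with values under 0.05 drawn at 0.05; cross, mean by principal transcript length). Complex V ends with Atp5s at 17.9 CPM per kb and complex IV with Cox6b2 and Cox7b2, while Atp5a1 at 1390 and Cox6a2 at 1153 stand highest by merged exons.

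Where a subunit has several isoforms, the share of each was taken per kb within its set. Cox6a2 made up 91.3% ± 0.930 of Cox6a1 plus Cox6a2, Cox8b 83.4% ± 0.984 of Cox8a plus Cox8b, and Cox7a1 65.4% ± 2.58 of Cox7a1 plus Cox7a2 (SD, n = 16), so the muscle forms prevailed in every library. Cox4i2 made up 1.34% ± 0.406 of the Cox4i pair, Ndufa4l2 1.86% ± 0.573 of the Ndufa4 pair, and Cox6b2 0.259% ± 0.0643 of the Cox6b pair. By principal transcript length these were 0.715%, 0.9751% and 0.428%. Among the 3 genes for the c subunit of complex V, whose mature proteins are the same, Atp5g3 held 53.5% ± 1.80, Atp5g1 24.3% ± 0.866 and Atp5g2 22.3% ± 1.67 by merged exons. By principal transcript length those shares were 67.9%, 10.6% and 21.5%, so the order of Atp5g1 and Atp5g2 depends on the length used. Of the 50-base words of Atp5g2, 38.3% also occur in other genes, chiefly Gm10175, so its counts are uncertain.

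Shares of some isoforms stood apart between arms, which is given as a description without a test. How often shares of other gene pairs separate between arms was not examined. The share of Cox4i2 was 1.51%, 1.39%, 1.71% and 1.39% in male controls, 1.16%, 1.37%, 1.33% and 0.298% in male CKD mice (the last in male_CKD 4), 1.92%, 1.71%, 1.73% and 1.65% in female controls and 1.07%, 0.818%, 0.995% and 1.36% in female CKD mice. Every CKD library was below every control library. The nearest were male_CKD 2 at 1.367% and male_control 2 at 1.388%. In CPM, Cox4i2 was not separated over both sexes. For Cox7a1 the share was 67.0% to 70.0% in male controls, 61.3% to 65.1% in male CKD mice, 66.7% to 67.1% in female controls and 61.3% to 66.8% in female CKD mice, where only female_CKD 4 reached the control range. In male_CKD 4 the Cox7a1 share was 63.4%, inside the range of the other male CKD libraries. The share of Ndufa4l2 was 1.88% to 2.68% in female controls and 0.905% to 1.85% in female CKD mice, without overlap, and 1.95% to 2.76% and 0.514% to 2.21% in males, with overlap. The share of Atp5g2 was 18.8% to 22.3% in male controls, 21.6% to 23.8% in male CKD mice, 20.6% to 22.5% in female controls and 22.9% to 24.8% in female CKD mice, with overlap in males and none in females. Cox8b shares were 84.0% ± 0.797 in controls and 82.8% ± 0.721 in CKD mice, and Cox6a2 shares 90.8% ± 0.814 and 91.7% ± 0.851 (SD, n = 8). Over both sexes both overlapped, while male Cox8b shares did not, with 84.1% to 84.5% in controls and 81.3% to 83.2% with CKD.

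**Figure D3:**
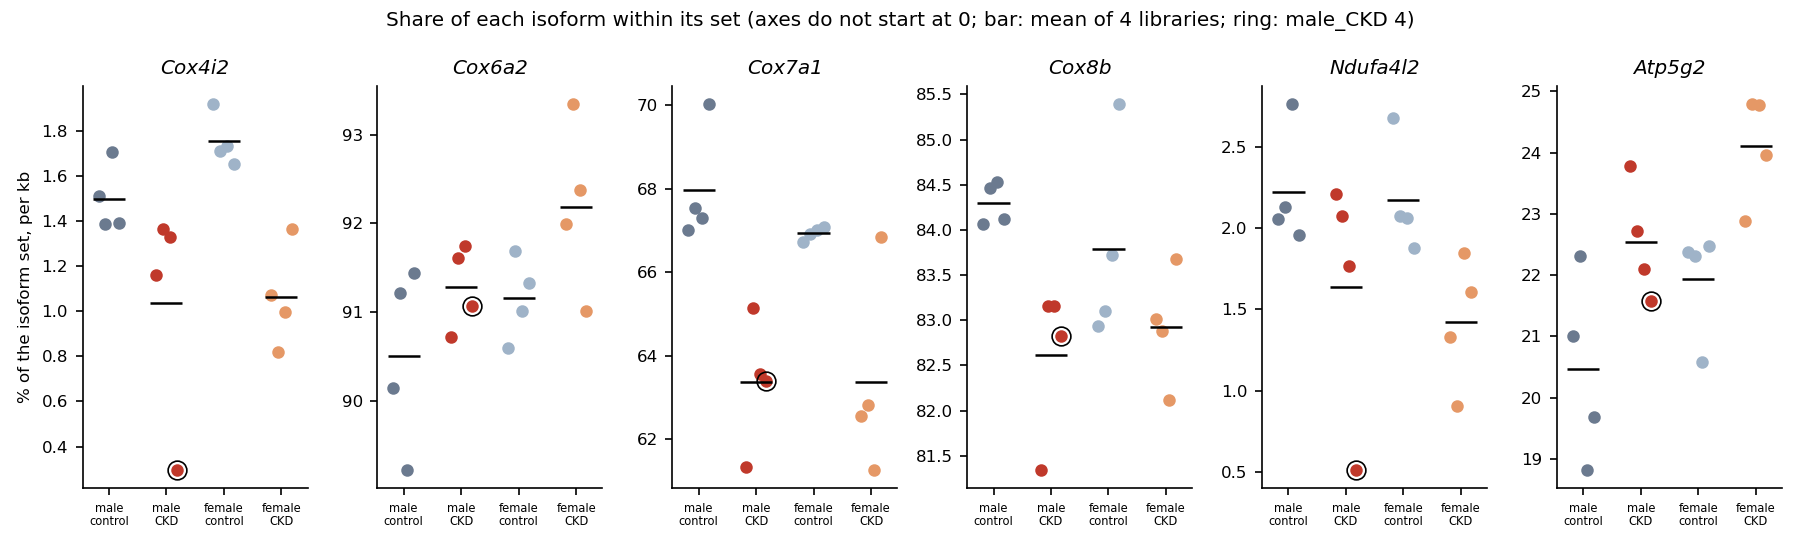
Share of each isoform within its set, in percent per kb of merged exons, for the 16 libraries by group (points, libraries; bar, mean of 4; ring, male_CKD 4; axes do not start at 0). All CKD libraries are below all controls for Cox4i2 (nearest values 1.367% and 1.388%), and 7 of 8 CKD libraries are below all controls for Cox7a1.

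Each gene was tested for a difference with CKD by edgeR's quasi-likelihood test, 8 mice against 8 with sex as a covariate. None of the 84 genes passed an adjusted p of 0.05, where 14 of 16400 genes (0.0854%) did. DESeq2 (2.43% of all genes called) and limma-voom (1.21%) also called none of the 84. At an unadjusted p under 0.05, 11 of the 84 genes were counted, against 15.4% of all genes, so that count is not a result about the set. The fitted log2 fold change was above 0 for 78 of 84 genes, with a median of 0.17, while over all genes 50.2% were above 0 with a median of 0.00. The 95% interval lay within 0.5 log2 units of 0 for 64 of the 84. Without male_CKD 4 the median of the set was 0.03, with 58 of 84 genes above 0, and without male_CKD 4 and male_control 3 it was 0.09, with 74 above 0.

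By complex, the median log2 fold change was 0.16 in complex I (37 of 38 above 0), 0.18 in complex II (4 of 4), 0.15 in complex III (7 of 9), 0.18 in complex IV (13 of 16) and 0.17 in complex V (17 of 17). Leaving out male_CKD 4 gave 0.03, 0.11, 0.02, 0.07 and 0.03 in the same order. In that setting complex II had the highest median, with all 4 genes above 0. No complex had a gene past the threshold.

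**Figure D4:**
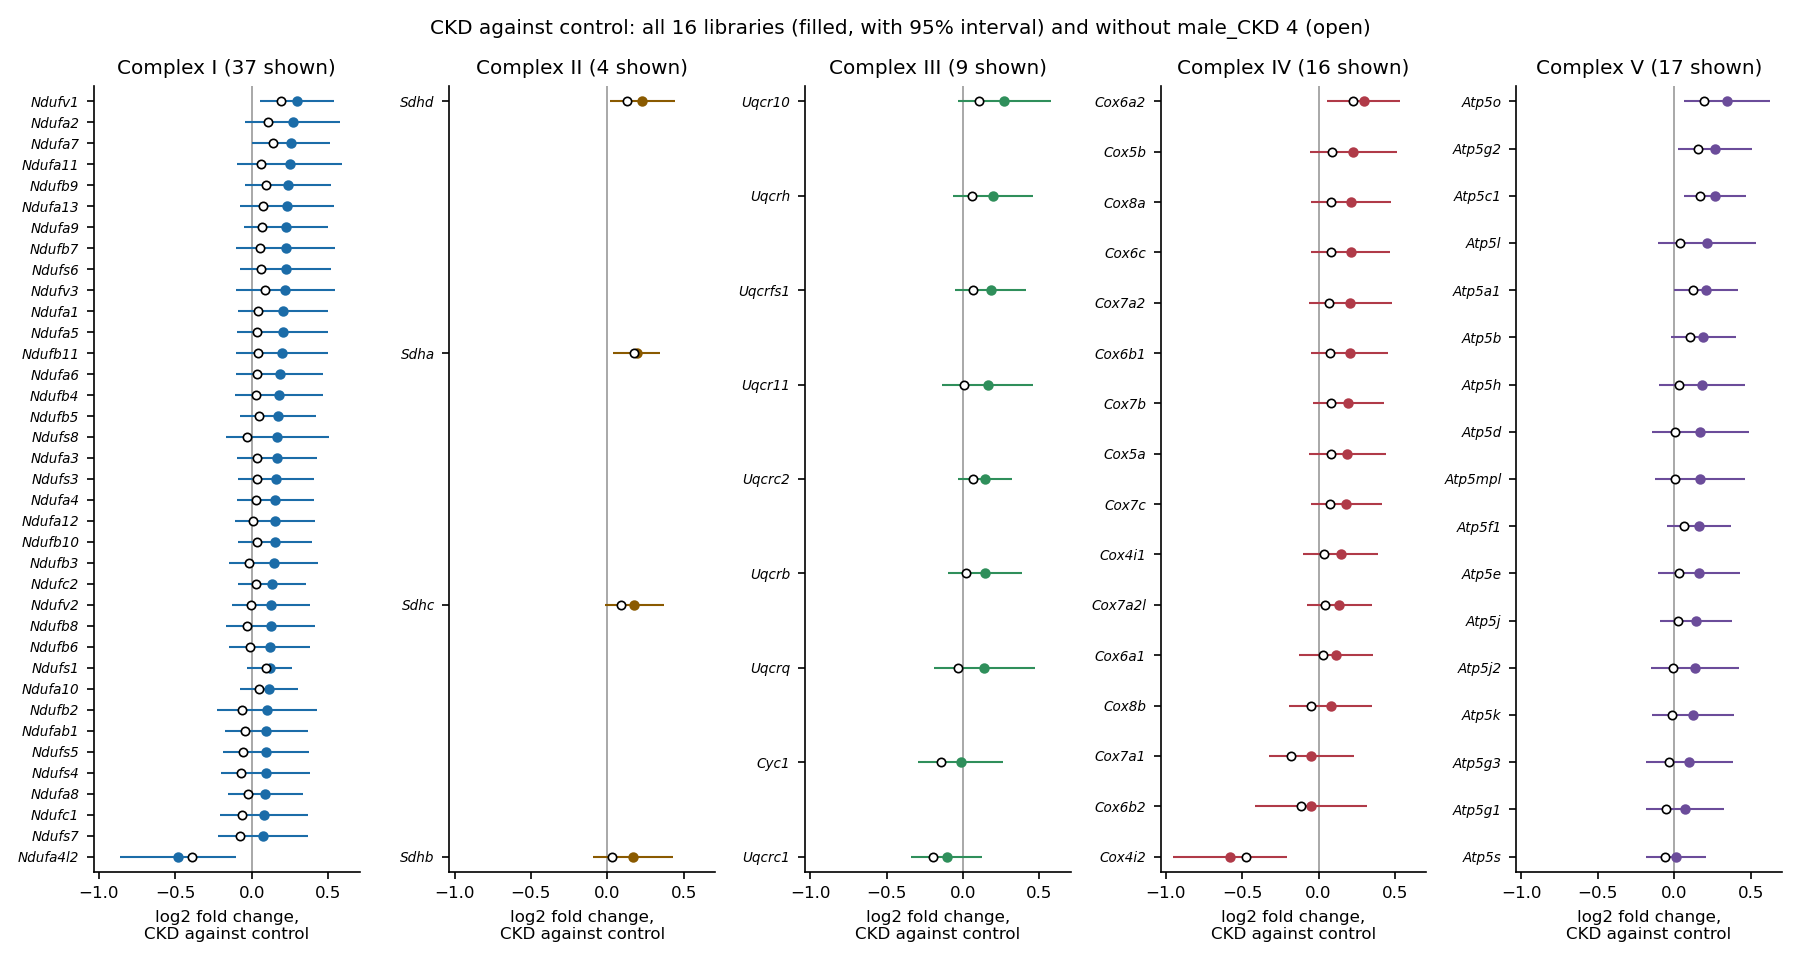
Log2 fold change of CKD against control for the tested genes by complex, with 1 gene of complex I not drawn (filled circle with 95% interval, all 16 libraries; open circle, without male_CKD 4). Among the open circles, those of Cox4i2 and Ndufa4l2 lie to the right of their filled circles, at -0.48 and -0.39, and the others lie to the left.

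In complex I the lowest p-values belonged to Ndufa4l2, a low-abundance relative of Ndufa4 known as a hypoxia-induced transcript, and to Ndufv1, which binds NADH and flavin. Ndufa4l2 (chr10:127514967-127517154) had 10.4 to 19.0 CPM in male controls (19.0 in male_control 3), 11.2, 12.1, 10.1 and 5.02 in male CKD mice, 15.2, 11.6, 10.7 and 11.7 in female controls and 7.81, 5.86, 10.4 and 9.43 in female CKD mice. On the log2 CPM scale male_control 3 had 4.26 and the other male controls 3.40 to 3.49. The female groups did not overlap (2.49% of all genes had all female CKD libraries below all female controls), the male groups did, and male_CKD 4 was the lowest library of all. Its log2 fold change was -0.48 (SE 0.18, adjusted p = 0.216, edgeR), and -0.39 (SE 0.15, adjusted p = 0.249) without male_CKD 4. Without male_CKD 4 and male_control 3 it was -0.29. Ndufv1 (chr19:4007384-4012806) had 733, 755, 936 and 751 CPM in male controls and 808, 862, 837 and 1399 in male CKD mice. In females it had 883, 855, 673 and 747 CPM in controls and 975, 1122, 859 and 911 with CKD. CKD and control libraries overlapped in both sexes, and the log2 fold change was 0.30 (SE 0.11, adjusted p = 0.228, edgeR), or 0.19 (SE 0.09) without male_CKD 4.

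In complex II, Sdha, which carries the flavin and oxidises succinate, had 1878, 1960, 1561 and 1841 CPM in male controls, 1856, 2024, 2029 and 2209 in male CKD mice, 2175, 2139, 1787 and 1895 in female controls and 2347, 2528, 2193 and 2229 in female CKD mice. Every female CKD library was above every female control (as for 5.08% of all genes), and the males overlapped. The fit gave 0.19 (SE 0.07, adjusted p = 0.225, edgeR), and 0.17 (SE 0.07) without male_CKD 4, so this gene moved little with that library. For Sdhd the fit gave 0.23 (SE 0.10, adjusted p = 0.283, edgeR), and 0.13 (SE 0.07) without that library.

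In complex III the lowest p-values were those of Uqcr10, a small subunit, with 0.27 (SE 0.14, adjusted p = 0.380, edgeR), and Uqcrc2, a core protein, with 0.15 (SE 0.08, adjusted p = 0.422). Without male_CKD 4 they had 0.10 (SE 0.08) and 0.07 (SE 0.06). Uqcrc2 had 1112, 1125, 1096 and 1148 CPM in female controls and 1234, 1281, 1163 and 1224 in female CKD mice, without overlap (as for 5.08% of all genes in this direction). In males it had 1072, 1081, 1061 and 1012 CPM in controls and 948, 1130, 1089 and 1558 with CKD, so the male groups overlapped. Of its exon bases, 19.7% lie opposite Pdzd9 (strand setting not given in the sources used here).

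In complex IV, Cox4i2 (chr2:152754173-152765037), the form of subunit 4 known for lung and for vessel wall cells, had 6.92, 7.54, 7.84 and 11.97 CPM in male controls (listed from low to high, the highest in male_control 3) and 6.01, 7.59, 7.42 and 2.75 in male CKD mice. In females it had 10.7, 9.11, 8.28 and 10.0 CPM in controls and 6.03, 5.35, 5.41 and 7.68 with CKD. Female groups did not overlap (as for 2.49% of all genes in this direction), and male groups did. These values rest on 29 to 144 counts per library. Its log2 fold change was -0.58 (SE 0.18, 95% interval -0.95 to -0.21, adjusted p = 0.136, edgeR), the lowest of the set, and -0.48 (SE 0.14, adjusted p = 0.145) without male_CKD 4. Without male_CKD 4 and male_control 3 it was -0.40, the value nearest to 0 among the alternatives. The main form Cox4i1 had 0.14 (SE 0.12, adjusted p = 0.567), and 0.03 (SE 0.08) without male_CKD 4.

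Markers of other cell types stood beside Cox4i2 and Ndufa4l2. All 10 fibroblast markers had a log2 fold change below 0 with CKD, with a median of -0.43, as did all 8 endothelial markers with -0.28, while 1 of 8 pericyte and smooth muscle markers was above 0 with a median of -0.15; none of these 26 passed the threshold and none was at 0 in any library. Without male_CKD 4 the medians were -0.31 (2 of 10 above 0), -0.25 (1 of 8) and -0.08 (4 of 8), and the mean fibroblast sum of male CKD mice was 2102 CPM against 2130 in male controls. The fibroblast sum was 1953 to 2459 CPM in male controls, 536 to 2281 in male CKD mice, 1827 to 2193 in female controls and 1360 to 2240 in female CKD mice. The endothelial sum was 1165 to 1409, 720 to 1261, 1152 to 1531 and 1003 to 1606 CPM in the same order, and the pericyte and smooth muscle sum 1258 to 1558, 733 to 1750, 1498 to 1716 and 1360 to 1661 CPM. Among 10 cardiomyocyte markers, 8 were above 0 with a median also of 0.17, which was 0.08 without male_CKD 4. None of 5 erythroid markers was above 0 over both sexes (median -0.36), but all 5 were in females. Macrophage markers had 2 of 8 above 0 (median -0.10) and atrial cardiomyocyte markers 2 of 5 (-0.29). Fat markers had 4 of 6 above 0 (0.10) and skeletal muscle markers 3 of 4 (0.30). The part of cell make-up in these values was not tested, and in bulk tissue fewer cells of a type and less RNA per cell cannot be told apart.

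Other complex IV isoforms were nearer to 0 or above it. Cox6a2 had 618, 631, 799 and 740 CPM in male controls, 712, 774, 811 and 1117 in male CKD mice, 775, 799, 637 and 635 in female controls and 833, 1146, 773 and 745 in female CKD mice, with overlap in both sexes. The fitted difference was 0.29 on the log2 scale (SE 0.11, adjusted p = 0.225, edgeR), and 0.21 to 0.33 when 1 library at a time was left out. Cox7a1 had -0.05 (SE 0.13, adjusted p = 0.876) and its counterpart Cox7a2 0.21 (SE 0.13, adjusted p = 0.448); without male_CKD 4 these were -0.18 (SE 0.09) and 0.07 (SE 0.08). Cox8b had 0.08 (SE 0.13) and Cox8a 0.21 (SE 0.12), against -0.05 (SE 0.09) and 0.08 (SE 0.08) without that library. The direction thus turned for Cox8b, as it did in 3 of 30 alternatives. Cox6a1, Cox6b1, Cox7a2l and Cox7b lay between 0.11 and 0.20, and between 0.03 and 0.08 without male_CKD 4. Cox6b2 had -0.05 (SE 0.17), and -0.11 (SE 0.17) without it. None passed the threshold.

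In complex V the lowest p-values were those of Atp5c1, the gamma subunit that turns within the catalytic head, and Atp5o, which joins the head to the stator. Atp5c1 (chr2:10056016-10080510) had 1125, 1171, 1296 and 1104 CPM in male controls, 1202, 1264, 1303 and 1999 in male CKD mice, 1221, 1236, 1138 and 1271 in female controls and 1432, 1576, 1408 and 1310 in female CKD mice. Female groups did not overlap (as for 5.08% of all genes in this direction), male groups did. Its log2 fold change was 0.27 (SE 0.10, adjusted p = 0.201, edgeR), and 0.17 (SE 0.06, adjusted p = 0.209) without male_CKD 4. Atp5o had the highest log2 fold change of the set, 0.35 (SE 0.13, adjusted p = 0.225, edgeR), from 476, 490, 644 and 490 CPM in male controls and 509, 570, 595 and 1103 in male CKD mice, and from 577, 590, 507 and 555 in female controls and 668, 764, 634 and 658 in female CKD mice. Without male_CKD 4 it was 0.20 (SE 0.08, adjusted p = 0.255). Of the 50-base words of Atp5o, 41.6% also occur in other genes, chiefly Gm15976, so its counts are uncertain. The c subunit genes had 0.07 (SE 0.12, Atp5g1), 0.27 (SE 0.11, Atp5g2) and 0.10 (SE 0.13, Atp5g3). Without male_CKD 4 these were -0.05, 0.15 and -0.03, so the direction turned for Atp5g1 and Atp5g3, at values smaller than the SEs above. Over 30 alternatives the sign changed in 4 for Atp5g1 and in 2 for Atp5g3.

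The CKD comparison was also made within each sex. In males no gene of the set passed the threshold and none had an unadjusted p under 0.05 (0% and 6.88% of all genes). There 80 of 84 genes were above 0 with a median of 0.23, which became -0.02 with 33 above 0 without male_CKD 4. That setting kept male_control 3, where the mean log2 CPM of the set was 8.81, against 8.37 to 8.45 in the other male controls. The male CKD libraries other than male_CKD 4 had 8.39 to 8.53. In females none passed (0.0549% of all genes) and 1, Cox4i2, had an unadjusted p under 0.05 (8.34%), with 74 genes above 0 and a median of 0.10. Cox4i2 had -0.64 (SE 0.26, adjusted p = 0.514, edgeR) in females and -0.52 (SE 0.26, adjusted p = 0.735) in males. The male value includes male_CKD 4, which was at -1.29 log2 units from the other male CKD libraries for Cox4i2. For the difference between the sexes in the CKD effect no gene passed and none had an unadjusted p under 0.05 (0% and 1.68% of all genes). The median was -0.12 for females minus males, and 0.11 without male_CKD 4, a setting that kept male_control 3. Over the alternatives it lay between -0.23 and 0.13.

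Counting libraries gave a related picture. Among females, 9 of 84 genes had all 4 CKD libraries above all 4 controls, against 5.08% of all genes: Ndufs1, Ndufa7, Ndufb9, Sdha, Sdhd, Uqcrc2, Atp5c1, Atp5f1 and Atp5o, named after their values were seen. Cox4i2 and Ndufa4l2 had all 4 below, a share near the 2.49% of all genes, so that count is not a result about the set. No gene of the set was separated in males, in either direction (1.63% higher and 1.56% lower over all genes), or over both sexes together (0.159% and 0.0427%).

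Females and males were compared over both arms. No gene of the set passed with edgeR (0.171% of all genes) or DESeq2 (9.03%), and limma-voom called Ndufs1 and Sdha higher in females (16.6% of all genes called). At an unadjusted p under 0.05 edgeR counted 4 genes, against 25.2% of all genes. Uqcrc1, a core protein of complex III, had -0.29 (SE 0.11, adjusted p = 0.1204, edgeR) and Ndufs7, a core subunit of complex I, -0.32 (SE 0.14, adjusted p = 0.166), while Sdha had 0.17 (SE 0.07, adjusted p = 0.165) and Ndufs1 0.16 (SE 0.07, adjusted p = 0.167); Uqcrc1, Ndufs7 and Ndufs1 are named after their values were seen. Uqcrc1 and Ndufs7 both had their highest level in male_CKD 4. The median of the set was -0.06 with 17 of 84 genes above 0, and 0.10 with 76 above 0 without male_CKD 4, so the direction turned with that library. The 3 genes on the X chromosome, Ndufa1 with -0.10 (SE 0.14), Ndufb11 with -0.10 (SE 0.14) and Cox7b with -0.01 (SE 0.11), did not pass. Without male_CKD 4 all 3 were above 0, at 0.09, 0.08 and 0.13.

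The libraries ranked alike across most genes of the set. In male_CKD 4, 79 of 84 genes had their highest level of the 16 libraries. Male_control 3 was second for 50 genes and female_CKD 2 for 28. In male_CKD 4 the median gene was 0.96 log2 units above the other male CKD libraries in complex I, 0.64 in complex II, 0.88 in complex III, 0.77 in complex IV and 0.87 in complex V. In male_control 3 the gap to the other male controls was 0.45, 0.06, 0.38, 0.41 and 0.41 in the same order. The median of complex II was thus nearly level in male_control 3, while its 4 genes ran from -0.28 (Sdha) to 0.35 (Sdhb). Sdha was lower there, at 1561 CPM, than in any other male control, and so was Ndufs1, the largest nuclear-encoded subunit of complex I, at 830 CPM against 957 to 1044. Genes with a principal transcript under 1 kb (50 genes) had a median gap of 0.46 in male_control 3 and 0.90 in male_CKD 4, and the other 34 had 0.31 and 0.84. The part of transcript length or RNA quality in these gaps was not tested.

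**Figure D5:**
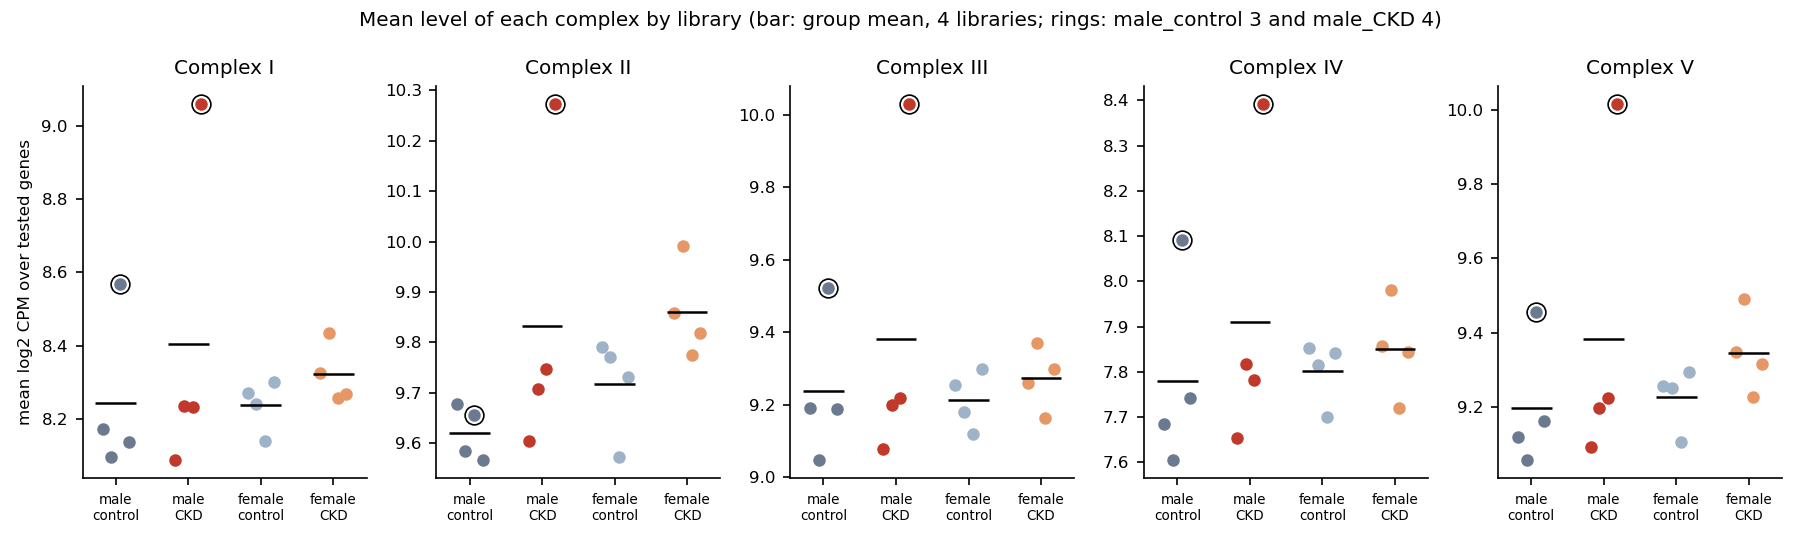
Mean log2 CPM of the tested genes of each complex in the 16 libraries by group (points, libraries; bar, mean of 4; rings, male_control 3 and male_CKD 4). Male_CKD 4 is highest in all 5 complexes, and male_control 3 is above the other male controls in all but complex II.

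As a measure of likeness, each gene's log2 CPM was correlated with the mean of the other genes over the 16 libraries, which share library, depth and preparation. The median Pearson r was 0.96 and the median Spearman rho 0.87, with 61 of 84 genes over 0.9. Without male_CKD 4 and male_control 3 the median r was 0.87 and 25 genes were over 0.9, so much of this likeness rests on those 2 libraries. The 5 least alike over 16 libraries were Cox4i2 with -0.55, Ndufa4l2 with -0.52, Ndufs1 with 0.22, Sdha with 0.24 and Cox6b2 with 0.36. Over the 14 libraries Ndufs1 had 0.81 and Sdha 0.82, while Cox4i2 had -0.12, Ndufa4l2 -0.57, Cox6b2 -0.23 and Uqcrc1 -0.34. The genes most like the rest were Ndufa13 and Atp5h, both with 0.99 over 16 libraries.

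Related gene lists were read beside the set for CKD against control. All 13 mitochondrially encoded subunits were above 0 with a median of 0.06, and mt-Nd4l, the one with the lowest p, had 0.12 (SE 0.08, adjusted p = 0.486, edgeR). Among 47 tested assembly factors, 30 were above 0 with a median of 0.03, and Sco1, a copper carrier for complex IV, had -0.26 (SE 0.09, adjusted p = 0.165). Of 12 carriers and electron transfer genes, 10 were above 0 with a median of 0.11, and Slc25a4, the heart form of the ADP/ATP carrier, had 0.27 (SE 0.10, adjusted p = 0.208). Without male_CKD 4, Slc25a4 had 0.18 (SE 0.07). Of 18 genes of pyruvate dehydrogenase and the citric acid cycle, 15 were above 0 with a median of 0.09, and Pdha1 had 0.22 (SE 0.09, adjusted p = 0.250). Of 17 regulators of mitochondrial gene expression, 8 were above 0 with a median of -0.03, and Tfb2m, a mitochondrial transcription factor, had 0.23 (SE 0.09, adjusted p = 0.246). No gene of these lists passed the threshold. Without male_CKD 4 the medians were 0.03 for mitochondrially encoded subunits (11 of 13 above 0), -0.02 for assembly factors (20 of 47), 0.02 for carriers (7 of 12), 0.03 for pyruvate dehydrogenase and the citric acid cycle (12 of 18) and 0.04 for regulators (9 of 17). The medians of assembly factors and regulators thus turned in sign in that setting. Without male_CKD 4 and male_control 3 the median was -0.002 for assembly factors (23 of 47 above 0) and -0.01 for regulators (8 of 17). Regulators thus kept the sign of the full fit when both libraries were left out.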

How the data were processed

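RNA from the ventricles of 16 mice was sequenced as paired-end reads, per the labels' protocols. The values the authors deposited are whole-number counts for each gene, not normalized. STAR 2.6.1d, featureCounts, Subread 1.6.3, FastQC, MultiQC, DESeq2 1.30.1 and mm10 are named per the submitters' processing notes. With annotation release, strand setting and treatment of multi-mapping reads not given in the sources used here, overlapping genes and near-identical copies can share counts. Of 33399 identifiers, 33367 matched GENCODE M21 without version. Every value column matched 1 mouse.

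Counts were fitted with edgeR 4.0.16 (R 4.3.3): genes were kept by filterByExpr (4 groups, at least 10 counts, total of at least 15; 16400 genes), TMM scaling and the two-sided quasi-likelihood F test. CKD and sex were terms of 1 additive model; effects within a sex and their difference were contrasts of a model with 4 groups. Adjusted p-values are Benjamini-Hochberg values over all 16400 genes, threshold 0.05. The fit was tested on simulated data. Levels between genes are CPM per kb of merged exon length. Alternatives were DESeq2 1.42.0, limma-voom with quality weights (limma 3.58.1), other scalings and filters, title code number, surrogate variables (sva 3.50.0), GC and length correction, and left-out libraries. Leaving out male_CKD 4 with male_control 3, the related lists and markers without male_CKD 4, and the principal transcript length, were chosen after seeing the data. The members, lists and motifs were chosen with earlier results of these data known. Genes named with test results are the isoform set, the 2 members of each complex with the lowest p for CKD, the X-linked members, and the gene with the lowest p of each related list. Uqcrc1, Ndufs7 and Ndufs1 were added for females against males after their values were seen. 1 gene of complex I enters the counts and medians but is not reported here by itself.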

Additional observations from a re-analysis of the deposited data

Results flagged for a closer look

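In each group of 4 libraries, the highest and lowest values were set against the other 3 by Dixon's ratio, over 128 groups of log2 CPM values. Chance alone marks about 1 in 20 such groups, and 23 values were marked, of which 22 belong to male_CKD 4 or male_control 3. The groups are not independent, because the genes moved together over the same libraries and some values are means of these genes. The 23 values are thus not separate departures.

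In male_CKD 4 the mean log2 CPM of the whole set was 9.29, against 8.39 to 8.53 in the other male CKD libraries. The means of complex I (9.06), complex III (10.03) and complex V (10.02) were marked as well. Single genes high in this library were Atp5c1 with 10.965, Cox4i1 with 10.82, Atp5g3 with 10.60, Atp5g1 with 10.54, Ndufv1 with 10.45, Cox7a2 with 9.41, Atp5g2 with 8.87, Cox8a with 7.69 and Cox6a1 with 6.82 log2 CPM.

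In male_control 3 the mean of complex I was 8.57 on the log2 CPM scale, where its group mates had 8.10 to 8.17. Single genes high in this library were Ndufv1 with 9.87, Ndufa4 with 9.72, Atp5o with 9.33, Cox6b1 with 9.20, Ndufb11 with 8.96, Cox7a2 with 8.84, Uqcr10 with 8.50 and Ndufa4l2 with 4.26 log2 CPM. Ndufa4l2 is thus high in male_control 3, while male_CKD 4 had its lowest level. The remaining value was Cox8a in female_CKD 2, at 7.11 log2 CPM, where the other 3 female CKD mice had 6.91 to 6.93.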

How the results depend on the processing

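Over 30 alternatives, no gene of the set passed the threshold for CKD, the median log2 fold change lay between 0.02 and 0.21, and 52 to 80 of 84 genes were above 0. Leaving out 1 library at a time gave medians from 0.034 (without male_CKD 4) to 0.21 (without male_CKD 1), and leaving out male_CKD 4 with female_control 2 gave 0.017, with 52 genes above 0. With GC and length trends removed the median was 0.11. For females against males the median of -0.06 became 0.095 with limma-voom, which called 2 genes, 0.14 with the title code number as a factor, 0.17 in libraries of code 6 alone and 0.11 without male_CKD 4 and male_control 3. Leaving out 1 library at a time gave -0.10 to 0.10. With GC and length trends removed that median was -0.06, but single genes moved: Atp5g2 from 0.04 to 1.06, Cox6a1 from -0.13 to 0.83 and Cox8a from -0.02 to 0.50. The cause was not tested. Cox4i2 ranged from -0.67 to -0.40 for CKD (adjusted p 0.0516 to 0.279) and Ndufa4l2 from -0.57 to -0.29 (0.144 to 0.391). Depth limits Cox4i2, Ndufa4l2 and Cox6b2 most. No paired analysis was possible because the labels give no replicate numbers that pair mice; the title code number, shared by libraries of several groups, entered only as the factor above.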
